A study of Mus musculus with 19 samples.

Results

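Drd1, Drd2, Adora2a, Ppp1r1b, Rgs9, Penk and Pde10a are genes whose mRNA is abundant in the striatum, the nucleus that lies beneath the neocortex and its white matter. These 7 genes, chosen by name out of 24130 genes listed, were followed through segments of mouse primary somatosensory cortex (S1) in order to tell genes with a pattern among the cortical layers from genes raised only in the deepest segment. The tissue came from male C57BL/6 mice (C57BL/6J in the methods of the study) aged 56 days, for which the labels give no altered genotype and no treatment. Segment A held mostly layers 1 to 3, B mostly layer 4, C and D mostly the upper and lower parts of layer 5, E mostly layer 6 and F mostly layer 6b, the thin sheet of cells next to the white matter. Libraries A, C, D, E and F each pooled RNA of 8 mice, and B1 and B2 each pooled 4 littermates, so that B was the only segment with replicates (n = 2). By the methods of the study these were the same 8 mice in every segment, so the libraries share animals. The segments were cut by hand under a microscope and adjoin each other, so a library can hold cells of neighbouring layers. The 12 samples of dorsal and lateral cortex were not analysed here. Expression is given as FPKM (fragment counts scaled for the length of the exon model and for the number of fragments mapped), with the 95% interval that the program cufflinks deposited for each estimate. That interval covers the estimate within a library and not the variation between mice.

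Projection neurons of the striatum fall into 2 main populations. Those of the direct pathway carry the dopamine receptor D1 (Drd1), which raises cyclic AMP, and those of the indirect pathway carry the dopamine receptor D2 (Drd2), which lowers it, together with an adenosine receptor (Adora2a), which raises it, and the opioid peptide precursor proenkephalin (Penk). Both populations use the phosphatase inhibitor encoded by Ppp1r1b, the G protein regulator Rgs9 and the phosphodiesterase Pde10a to shape the cyclic AMP signal. In the neocortex, receptors of the D1 type are known from neurons of the deep layers, and Penk is known from subsets of cortical neurons, interneurons among them.

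The sequences below show the parts of 3 transcripts on which the biology of these genes turns, read from GENCODE M21 (build GRCm38), which was used here only by identifier because the expression files have coordinates of build mm9. The Drd2 line shows exon 6 of 8 of the Drd2 transcript ENSMUST00000075764, chr9:49403194-49403280 on the plus strand, in capitals with 12 coding bases on each side; its 87 bases (29 codons) lie in the part of the receptor that contacts G proteins, and leaving them out gives the short isoform. The Ppp1r1b line shows codons 29 to 39 with codon 34 in capitals, the threonine that protein kinase A phosphorylates to make the product an inhibitor of protein phosphatase 1. The Penk lines show in capitals the 15 bases that encode a Met-enkephalin (codon 100 onward) and the single Leu-enkephalin (codon 231 onward), each between the codon pairs for basic residues where the precursor is cut. The Penk reading frame holds 6 copies of Met-enkephalin and 1 of Leu-enkephalin, all 7 preceded by such a pair.
Drd2 exon 6: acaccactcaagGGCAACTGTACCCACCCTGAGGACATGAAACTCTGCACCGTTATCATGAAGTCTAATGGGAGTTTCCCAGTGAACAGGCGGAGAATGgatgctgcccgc
Ppp1r1b codons 29 to 39: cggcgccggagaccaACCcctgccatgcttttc
Penk Met-enkephalin: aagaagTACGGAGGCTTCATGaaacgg
Penk Leu-enkephalin: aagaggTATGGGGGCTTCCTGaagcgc

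The libraries were first checked against layer markers. All 6 markers of layer 6b had a higher FPKM in F than in E without overlap of their intervals. Of genes that averaged 0.1 FPKM or more, 22.5% did. An interval in F above that of every other library was found for 5 of the 6, against 11.7% of genes. Svil (1.87 FPKM in A, 3.51 in F) was the exception. The summed FPKM of the 6 markers went from between 9.78 and 18.5 in A to D through 89.1 in E to 431 in F. The 5 layer 6 markers summed to 150 FPKM in E and 144 in F. The estimated depth was 31.4 M fragments in A and between 41.8 and 75.2 M in the other libraries. Transcripts of the mitochondrial genome took 21.8% of the summed FPKM in A and 5.03% in F. This share also differed between the replicates of B, with 7.76% in B1 and 18.2% in B2. The median over the 17844 genes that averaged 0.1 FPKM or more lay 0.20 higher in F than in the other 6 libraries on the log2 scale, and rescaling by the median of ratios moved it to -0.01. In tissue pools, fewer cells of a type and less RNA per cell cannot be told apart.

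All 7 genes were listed in all 7 libraries, and the levels between genes ran from 0.198 FPKM for Drd2 to 151 FPKM for Ppp1r1b. Of the 7 genes, 6 were highest in F with an interval above that of each other library, where 11.7% of the 17844 genes were. Penk was the exception. All 7 had an interval in F above that in E, against 22.5% of genes, and 3 of them, Drd1, Drd2 and Adora2a, were in F also at least 2-fold above every other library, against 2.65% of genes. Within A to E all 7 genes had a pattern by the rule used here, that is, 2 segments with nonoverlapping intervals and a ratio of at least 1.5 that exceeded the ratio between B1 and B2. The background of this rule was 65.8% of genes. By these rules 0 of the 7 genes were raised only in F, against 3.14% of genes. At so low a share, a count of 0 of 7 cannot tell these genes from others. The pattern of Drd2, Adora2a and Pde10a rested on segment A alone. Without library A, 4 genes (Drd1, Ppp1r1b, Rgs9 and Penk) kept a pattern in B to E, against 28.8% of genes, and 3 (Drd2, Adora2a and Pde10a) were raised only in F, against 8.47%. That setting was chosen after the values had been seen.

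**Figure D1:**
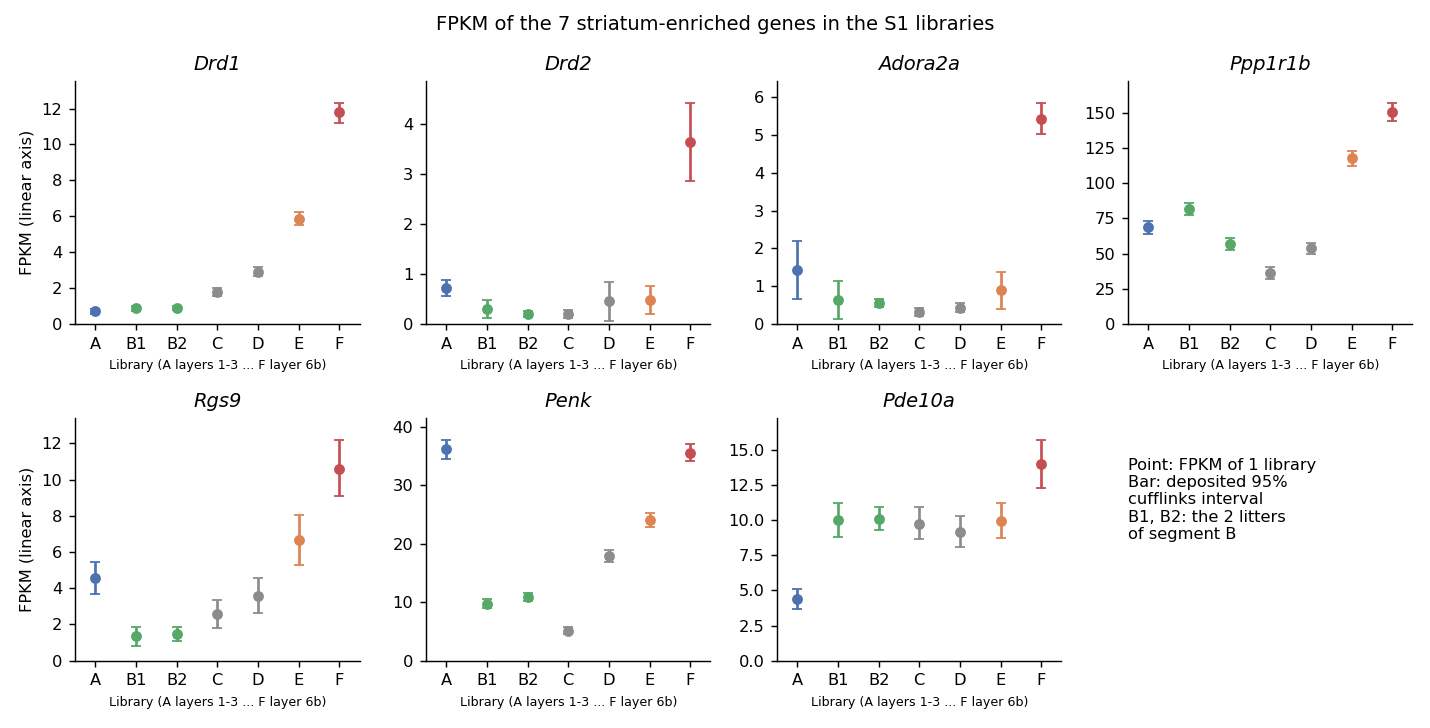
FPKM (vertical, linear axis from 0) of the 7 genes in each library (horizontal, from superficial A to deep F). Points are single libraries and bars the deposited 95% intervals; Drd2 and Adora2a lie under 1.5 FPKM in A to E and at 3.64 and 5.44 FPKM in F, whereas Drd1 climbs from C onward and Penk is as high in A as in F.

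Drd1 (ENSMUSG00000021478, mm9 chr13:54147024-54151027) had the most regular course. Its level was 0.711 FPKM in A, 0.874 and 0.905 in the litters B1 and B2, 1.78 and 2.92 in C and D, 5.87 in E and 11.8 in F. The intervals of C, D, E and F all lay apart from each other and above those of A, B1 and B2, which overlapped. F exceeded E 2-fold, or by 5.89 FPKM (interval 5.23 to 6.54). Segment E alone was 8.26-fold above A, and 9 of the 10 pairs of segments among A to E were apart. Drd1 thus had a graded course within the cortical segments, with 49.1% of its summed level over the 6 segments in F and 24.5% in E.

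Drd2 and Adora2a, both markers of the indirect pathway in the striatum, differed from this course. Drd2 (ENSMUSG00000032259, mm9 chr9:49148732-49216282) was at 0.721 FPKM in A, 0.300 and 0.198 in B1 and B2, 0.198 and 0.453 in C and D, and 0.480 and 3.64 in E and F. Adora2a (ENSMUSG00000020178, mm9 chr10:74779688-74797533), which couples to the same stimulatory G protein as Drd1, was at 1.43 FPKM in A, 0.632 and 0.568 in the litters B1 and B2, 0.318 and 0.428 in C and D, 0.894 in E and 5.44 in F. In both genes F stood clear of all other libraries and A came second. With the libraries ranked by FPKM, each one from A downward overlapped the next lower one. F was 7.6-fold above E and 5.05-fold above A for Drd2, and 6.08-fold above E and 3.81-fold above A for Adora2a. Between E and F, Drd2 gained 3.16 FPKM (interval 2.34 to 3.99) and Adora2a 4.54 FPKM (3.9 to 5.18). Within A to E only A stood out, above B (2.89-fold) and C (3.64-fold) for Drd2 and above C (4.48-fold) and D (3.33-fold) for Adora2a. By the same rule no pair of segments among B to E was apart for either gene. Drd2 was low in A to E, at no more than 0.721 FPKM, with loose intervals such as 0.0606 to 0.846 in D. Its widest interval was that in F (2.87 to 4.42 FPKM), its highest library, and spans 182% of its mean over the 7 libraries. The widest interval of Adora2a, in A (0.655 to 2.2 FPKM), spans 111% of its mean.

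The ratio of Drd1 to Drd2 within a library, which needs no scaling between libraries, was 0.986 in A, 2.91 and 4.56 in the litters of B, 8.99 and 6.44 in C and D, 12.2 in E and 3.23 in F. The value in F was below those in C, D and E, although the interval of Drd2 in D (0.0606 to 0.846 FPKM) leaves the ratio there loose. The ratio of Adora2a to Drd2 lay between 0.944 (D) and 2.86 (B2) in all 7 libraries, with 1.49 in F.

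Ppp1r1b (ENSMUSG00000061718, mm9 chr11:98209718-98219110) was the most abundant of the 7 genes in every library. It was at 68.6 FPKM in A, 81.9 and 57.1 in B1 and B2, 36.2 and 53.7 in C and D, and 118 and 151 in E and F. The lowest level was in C, and both E and F stood above all other libraries. F was 1.28-fold above E, a smaller ratio than the 1.43 between the litters B1 and B2. Among A to E, E was 3.26-fold above C and 1.72-fold above A. A gene that overlaps Ppp1r1b, 1700003D09Rik, was listed at 0.0465 to 0.311 FPKM, and because the library kit did not mark strand its reads cannot be told from those of Ppp1r1b.

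Rgs9 (ENSMUSG00000020599, mm9 chr11:109086669-109159443) speeds up the shutdown of the G proteins of the D2 type of receptor. Its level was 4.57 FPKM in A, 1.34 and 1.47 in the litters B1 and B2, 2.56 and 3.59 in C and D, 6.69 in E and 10.6 in F. It was lowest in layer 4 and higher in each deeper library, with overlap between B and C, between C and D and between A and both D and E. F was 1.59-fold above E and E 4.76-fold above B. The increment from E to F was 3.94 FPKM (interval 1.87 to 6). When every interval was widened 2 times, F and E overlapped.

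Pde10a (ENSMUSG00000023868, mm9 chr17:8718237-9179513), which breaks down cyclic AMP and cyclic GMP, was nearly level across the middle of the cortex. It was at 4.40 FPKM in A, 9.99 and 10.1 in B1 and B2, 9.75 and 9.18 in C and D, and 9.96 and 14.0 in E and F. The 5 libraries from B1 to E overlapped, A was lower than each of them, and F was 1.39-fold above the highest of them. Rescaled by the median of ratios, or without mitochondrial genes, F was no longer above all other libraries. With every interval widened 2 times F was no longer above E in Pde10a and Rgs9, and 4 of the 7 genes were raised in F in place of 6. Gm15425, a gene listed within the Pde10a locus, was at 1.03 to 1.53 FPKM in B1 to F and not listed in A.

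Penk (ENSMUSG00000045573, mm9 chr4:4060684-4065935) was the gene with no excess in F over segment A. It was at 36.2 FPKM in A, 9.75 and 10.9 in the litters B1 and B2, 5.15 and 18 in C and D, 24.0 in E and 35.6 in F. A and F overlapped and stood above all others, and the lowest level was in C, 7.03-fold below A. From C to F each deeper library was apart from the one above it. F was 1.48-fold above E and 0.982 times A. The gene A830012C17Rik, which overlaps Penk, was listed at no more than 0.19 FPKM. The ratio of Penk to Adora2a within a library was between 15.4 (B1) and 42 (D) in A to E and 6.54 in F, below each of the others.

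**Figure D2:**
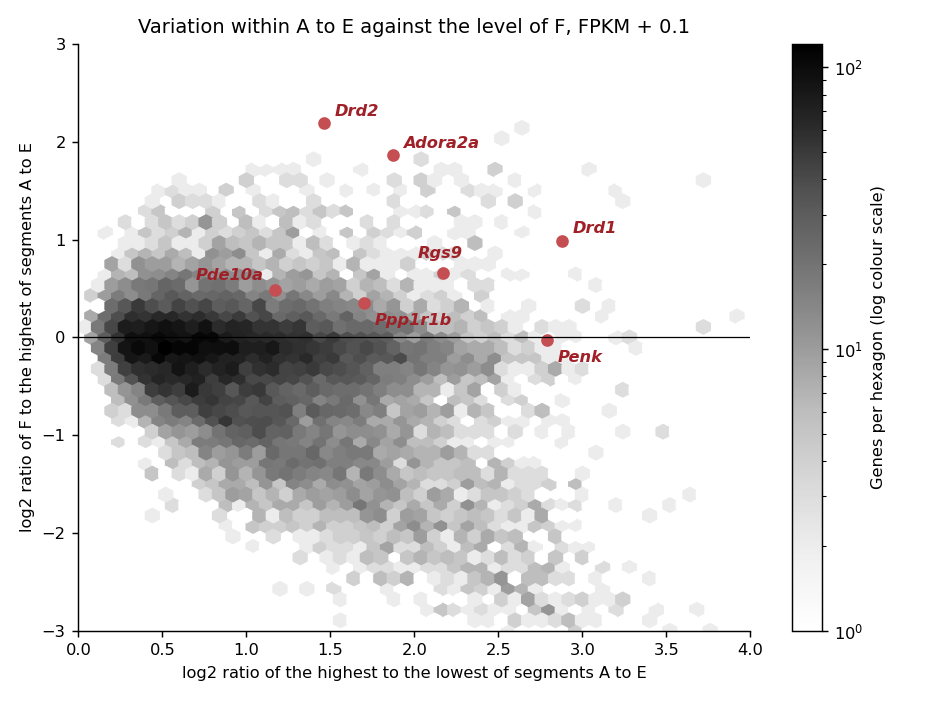
Each of 17263 genes that averaged 0.1 FPKM or more is placed by the log2 ratio of the highest to the lowest of segments A to E (horizontal) and of F to the highest of A to E (vertical), both on FPKM + 0.1, with darker hexagons for more genes (581 genes lie outside the axes). Drd2 (1.46, 2.19) and Adora2a (1.87, 1.86) lie at the upper edge, Drd1 (2.88, 0.99) and Penk (2.79, -0.03) to the right, and Pde10a (1.17, 0.48) nearest to the bulk.

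The genes were then placed among all genes. For Drd2, 0.106% of the 17844 genes had a larger ratio of F to the highest of A to E, and 31% a larger ratio within A to E. For Adora2a these shares were 0.241% and 17.4%. Drd1 and Penk had ratios within A to E that 4.67% and 5.17% of genes exceeded.

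Because F is 1 library, the test of F against the other 6 assumes that F varies like them, and the spread it is set against includes the differences between layers. With limma on log2(FPKM + 0.1), 12 of 17844 genes (0.0672%) passed an adjusted p of 0.05, and 0 of the 7 genes were among them. The count of 12 became 29 without A and 25 without E, again with 0 of the 7. At an unadjusted p under 0.05, 3 of the 7 were higher in F, against 6.61% of all genes. The difference of F was 3.03 ± 0.57 (log2, SE) for Drd2, with an adjusted p of 0.26 in limma. For Adora2a it was 2.90 ± 0.63 (adjusted p = 0.265, limma), and for Drd1 2.78 ± 1.01 (adjusted p = 0.462, limma). The other 4 genes had differences of 1.85 (Rgs9), 1.31 (Penk), 1.22 (Ppp1r1b) and 0.70 (Pde10a), with adjusted p between 0.606 and 0.829 in limma.

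A test for a smooth course with depth, a linear and a quadratic term of segment position, was passed by 4 of the 7 genes, all with a linear term above 0, where 27.0% of genes passed with a linear term above 0 and 7.54% with one below 0. Of all genes that passed, 78.1% had a term above 0, a share of 54.6% once the libraries were rescaled by the median of ratios and 67.1% after rescaling without mitochondrial genes. Limma gave an adjusted p of 0.00203 for Drd1, 0.00399 for Adora2a, 0.00854 for Drd2 and 0.0289 for Rgs9. Rgs9 was past the threshold with both B libraries and had an adjusted p of 0.0603 without B2. Ppp1r1b (adjusted p = 0.0559), Penk (0.0636) and Pde10a (0.145) were not past the threshold in limma, although Ppp1r1b had an adjusted p of 0.0242 without B1. Of 13 alternatives, Ppp1r1b passed in 6, Penk in 3 and Pde10a in 0. Without A, 1294 genes passed in place of 6160, and the same 4 of the 7 did, with adjusted p of 0.0181 to 0.0441 in limma. Over A to E alone, so that F played no part, 2 of the 7 genes passed. Drd1 passed with a linear term above 0 (adjusted p = 0.0226, limma), as did 16.9% of genes. Adora2a passed with a linear term of -0.47 (adjusted p = 0.0238, limma), where 4.31% of genes passed with one below 0. Each p is for the linear and quadratic terms together and does not test the slope alone. Drd1 rose from 0.711 FPKM in A to 5.87 in E. Adora2a went from 1.43 FPKM in A through 0.318 in C to 0.894 in E, with A and E overlapping. The sign of its linear term depended on F. The linear term of Drd2 went from 1.88 to 0.03 without F (adjusted p = 0.142, limma). That of Rgs9 went from 1.90 to 1.02 (adjusted p = 0.073, limma).

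The deposited transcript estimates, which the choice of genes did not use, show which forms of these genes were measured. Of Drd2, the long isoform (ENSMUST00000075764, with the 87 bases shown above) was at 2.81 FPKM in F (interval 2.26 to 3.36) and the short one (ENSMUST00000114494) at 0.837 (0.322 to 1.35), shares of 77% and 23%. F was the library where both isoforms were highest and their intervals were apart. In A and C only the long isoform was listed, in B2 only the short one, and in B1, D and E their intervals overlapped, so no order can be given there. The deposited tables leave out isoforms far below the main one of a locus, so an isoform that is not listed may be present at a low level.

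Of Rgs9, 4 isoforms were listed. ENSMUST00000020920, the long isoform, encodes the protein of 675 residues that is known from the striatum, and ENSMUST00000106706 one of 484 residues that shares its first 466 and has 18 of its own in place of 209 at the end, the form known from the retina. The long isoform was at 0.965 FPKM in A, 0.468 and 0.336 in B1 and B2, 1.19 and 1.69 in C and D, and 3.81 and 4.99 in E and F, so that E and F overlapped and both stood above the other libraries. Its share of the Rgs9 isoforms was 21.8% in A, 34.8% and 22.9% in the litters of B, 47.5% and 48.2% in C and D, 58.3% in E and 47% in F. The retinal form was not listed in A and lay between 0.171 FPKM (B2) and 1.33 FPKM (F) in the other libraries. A further isoform, ENSMUST00000103062, which encodes 449 residues and lacks a long stretch near the start of the long form, stood above the long isoform in A (3.19 FPKM, 72.1%) and B2 and was at 3.96 FPKM in F. The long isoform stood above it in E, and the intervals of the 2 overlapped in B1, C, D and F. Thus the level of Rgs9 in A was mostly an isoform other than the long one.

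The coding transcript ENSMUST00000078694 had 57.9% of the Ppp1r1b level in F and between 38% (B2) and 71.1% (B1) in the other libraries, a range that B1 and B2 alone spanned. The rest was assigned to ENSMUST00000147415 and, in B2 and C, ENSMUST00000132443, both annotated as retaining an intron. The level of the coding transcript was 62.9 FPKM in E and 87.2 FPKM in F (intervals 60.8 to 64.9 and 84.8 to 89.6), apart from each other. In the litters B1 and B2 it was at 58.2 and 21.7 FPKM (intervals 56.3 to 60 and 20.5 to 22.8). The gap between these replicates was wider than that between E and F. Of Pde10a, 5 isoforms were listed. ENSMUST00000115724 was at 1.16 to 1.93 FPKM in B1 to F and not listed in A, and ENSMUST00000149440 was listed in F alone (1.45 FPKM, interval 0.748 to 2.15). ENSMUST00000115717, annotated as a target of nonsense-mediated decay, was at 2.08 FPKM in E (interval 1.34 to 2.81) and 4.4 in F (3.51 to 5.3). Its interval in B1 (2.57 to 4.08) overlapped that in F. For ENSMUST00000115715, ENSMUST00000115718 and ENSMUST00000115724 the intervals of E and F overlapped.

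**Figure D3:**
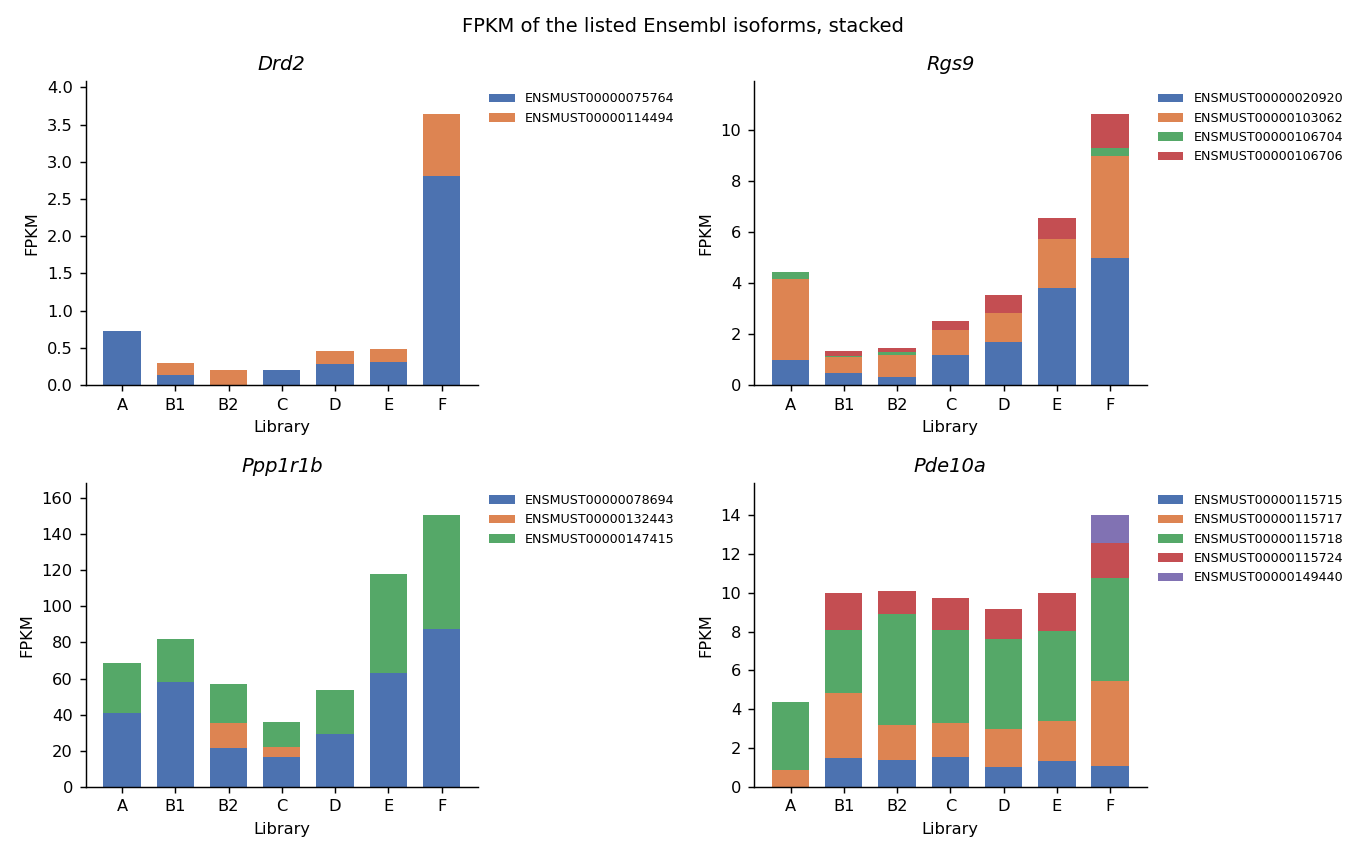
Stacked bars give the FPKM (vertical, linear axis from 0) of the listed isoforms of Drd2, Rgs9, Ppp1r1b and Pde10a in each library (horizontal). The long Drd2 isoform (ENSMUST00000075764) makes up 2.81 of 3.64 FPKM in F, and for Rgs9 ENSMUST00000103062 is the larger part in A whereas the long ENSMUST00000020920 is in E.

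Loci that the authors assembled from the reads without annotation gave a second estimate. For Drd1 it ran from 1.07 FPKM in B1 and 1.44 in A to 11.8 in E and 25.8 in F. For Adora2a it was 12 FPKM in A, between 0.894 and 3.57 in B1 to E, and 52.5 in F (interval 29.6 to 75.4). Rgs9 was at 46.6 FPKM in E and 104 in F, so the levels of this estimate differ from those of the Ensembl models. Its order among libraries can be compared only loosely, because the assembled stretch was not the same in every library. For Rgs9 it ended at 109134667 in A and 109159369 in F (mm9). For Drd2 it began at 49211299 in C and 49203908 in F. Where several loci overlapped a gene, the one with the widest overlap was taken. F was again above all other libraries for Drd1, Adora2a, Ppp1r1b and Rgs9. For Rgs9, however, A (8.86 FPKM, interval 5.81 to 11.9) overlapped B1 and B2 and lay below D (20.5 FPKM, interval 14.4 to 26.6). In the Ensembl models Rgs9 in A was above B and C, so the place of A differed between the estimates. Drd2 was highest in F (7.81 FPKM, interval 3.05 to 12.6), which overlapped A and D. Pde10a was at 20 FPKM in A (interval 16.2 to 23.7) and 18.1 in F with overlapping intervals, and between 12.2 (D) and 14.1 (B1) in B1 to E. A was thus above B1 to E in this estimate, the reverse of the Ensembl models, where A was lowest at 4.40 FPKM. The place of A in the Pde10a pattern therefore depended on the estimate used. Penk had no assembled locus in B1 and F.

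Of 5130 genes that varied across the libraries, those most like each of the 7 were ranked by Pearson's r of log2(FPKM + 0.1) over the 7 libraries. These r describe 7 points that share tissue and depth. Drd1 was most like Anln (r = 0.996), Klhl4 (0.995) and Klk6 (0.994). Drd2 was most like Hpcal1, Mvp and Ccdc13 (r from 0.979 to 0.98), and Adora2a most like Josd2, Plin3 and Arap1 (0.964 to 0.974). Rgs9 was most like Nos1, Actb and Trabd2b (0.982 to 0.986), Ppp1r1b most like Kcnj2 and Col11a2 (0.914 to 0.932), Penk most like Dmkn, Grik4 and Rgs12 (0.939 to 0.965), and Pde10a most like Prkd1, Zfp868 and Masp1 (0.983 to 0.985). Among the 7 genes themselves, r was highest for Drd2 with Adora2a (0.95) and lowest for Penk with Pde10a (-0.24).

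Other genes that mark striatal projection neurons did not all move with these 7. Of 30 such genes, 26 averaged 0.1 FPKM or more, and of these 6 were raised in F (Gpr6, Adcy5, Gnal, Pde1b, Syndig1l and Slc35d3), where 11.7% of all genes were. The median difference of F was 0.34 (log2), beside 0.20 over all genes. These genes were also split by known use in cortical neurons. The split was drawn with earlier results of these data known, so it is not an independent contrast. Of the 13 striatal genes that cortical neurons are known to use as well, 0 were raised in F, with a median of -0.32. With 11.7% of all genes raised in F, a count of 0 of 13 cannot tell this list from other genes. All 6 raised genes belong to the remaining striatal genes (6 of 13 at this level, median 0.53), whose summed FPKM was 117 to 174 in A to E and 217 in F. These are not absent from the cortical segments, since Pde1b was at 29.9 to 44.2 FPKM, Gnal at 12.8 to 39.6 and Adcy5 at 12.7 to 23.6 in A to E. By limma 0 of the 26 genes passed an adjusted p of 0.05 for F, and 4 were higher, as were 6.61% of all genes, and 1 lower at an unadjusted p under 0.05.

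Of these other striatal genes that averaged 0.1 FPKM or more, Syndig1l had the largest share in F, at 3.01 FPKM in E and 18.3 in F (71.1% of its level). Gpr6, a receptor of indirect pathway neurons, was at 0.198 FPKM in E and 1.53 in F, and in A to D between 0.137 and 0.537. Rasd2, a striatal GTPase, was at 56.5 FPKM in B1 and 18.3 in F. Of the direct pathway peptides, Tac1 was at 8.99 FPKM in E and 9.41 in F, with overlapping intervals. Pdyn was at 1.03 FPKM in E and 1.82 in F, with intervals apart, and was highest in C (15.4 FPKM). Isl1, a transcription factor of direct pathway neurons, was at 0.0534 FPKM in A, listed at 0 in B1, B2, C and D, and at 0.00774 in E and 0.0941 in F. Drd3, a receptor of the ventral striatum, was at 0.0154 FPKM in A, 0.0126 in B1 and 0.0751 in F and listed at 0 in B2, C, D and E, and was not called raised in F.

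**Figure D4:**
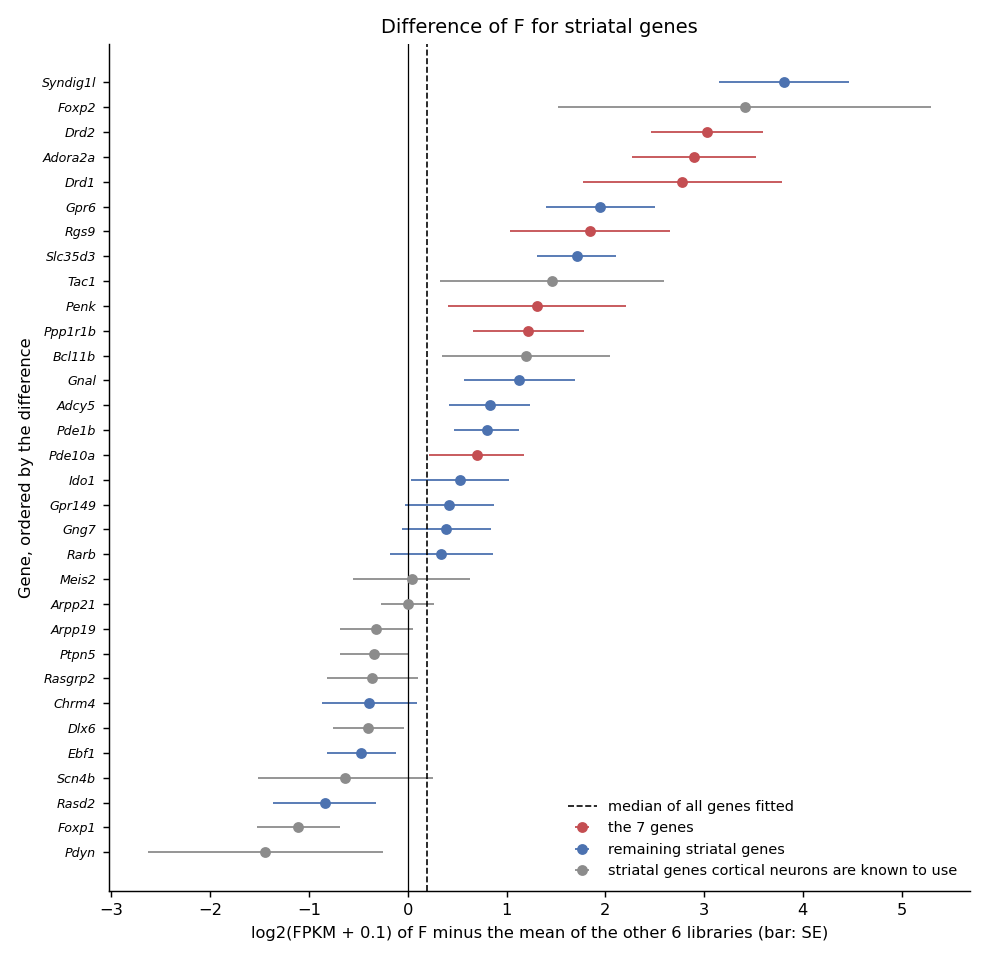
The difference of F from the mean of the other 6 libraries on log2(FPKM + 0.1) (horizontal, with SE) is drawn for the 7 genes and for 25 other striatal genes (vertical, ordered). The 7 genes run from 0.70 (Pde10a) to 3.03 (Drd2), Syndig1l (3.81) and Foxp2 (3.41) lie above them, and the dashed line marks the median of all genes at 0.20. Foxp2 (SE 1.89), also in the layer 6 list, was not raised in F over E. It was at 13.2 FPKM in E and 13.9 in F with overlapping intervals, and under 1 FPKM in A to C.

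The machinery that the dopamine and adenosine receptors act on was measured through 41 further genes, 5 of them also in the striatal list, of which 39 averaged 0.1 FPKM or more. Of these, 7 were raised in F, 17 passed the trend test with a linear term above 0 and 1 with one below 0, and 0 passed the adjusted test of F in limma (1 at an unadjusted p under 0.05). Over all genes the shares were 11.7% raised in F and 27.0% and 7.54% past the trend test in the 2 directions. Their median difference of F was 0.24, beside 0.20 over all genes. Among the receptors, Drd5, the other receptor of the D1 type, was at 0.0952 FPKM in A, 1.05 to 1.4 in C to E and 2.28 in F, whereas Drd4 was at 0.872 in A and 0.118 in F. Gnal, the stimulatory G protein subunit of the striatum, was at 12.8 FPKM in A, 39.6 in E and 45.4 in F (trend adjusted p = 0.0085, limma). Its partner Gng7 was at 11.6 FPKM in E and 24.5 in F but at 29.2 in C. Adcy5, the main adenylyl cyclase of the striatum, was at 23.6 FPKM in E and 33.8 in F. The partners of the Rgs9 protein did not share its course, with Gnb5 at 55.4 FPKM in E and 49.3 in F and Rgs7bp at 112 FPKM in A and 44.4 in F. Pde1b, another phosphodiesterase of striatal neurons, was at 44.2 FPKM in E and 65.1 in F. The common stimulatory subunit Gnas was at 715 FPKM in E and 717 in F.

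Enkephalins are cut from their precursor by convertases and act on opioid receptors, and 9 genes of peptide processing, opioid receptors and other opioid precursors (Pdyn and Pomc) were measured. Of these, 2 were raised in F and 6 passed the trend test with a linear term above 0, against 11.7% and 27.0% of all genes, with a median difference of F of 0.16 beside 0.20 over all genes. Cpe, which trims the cut peptides, was at 373 FPKM in A, 817 in E and 1067 in F. Oprm1, the mu receptor, was at 0.756 FPKM in E and 1.14 in F. Its deposited interval in E (0.754 to 0.759) was narrow for so low a level. Mme, of the same list, had 0.84 to 1.63 at 1.23 FPKM in E. The call of Oprm1 as raised in F rests on such narrow intervals. Oprd1, the delta receptor on which enkephalins act, was at 7.13 FPKM in D and 3.56 in F.

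Markers of other cells also moved with F. All 12 oligodendrocyte markers were raised in F, where 11.7% of all genes were. Their summed FPKM was 373 in A, 902 and 929 in the litters of B, 1746 and 2336 in C and D, 4317 in E and 13089 in F. Drd1 had the same order of libraries, with overlapping intervals in A, B1 and B2. So did Tle4 of the layer 6 list, at 2.56 FPKM in A, 35 in E and 39.8 in F. This order is therefore not particular to oligodendrocyte markers, and 27.0% of all genes passed the trend test with a linear term above 0. Of the 5 markers of ependyma and choroid plexus, 3 were raised in F and the sum, mostly Ttr, was 28.5 FPKM in A, between 2.65 and 9.8 in B1 to D, 69.2 in E and 208 in F. In Adora2a and Drd2, A and E overlapped. Of the 4 genes of claustrum and endopiriform nucleus, 1 was raised in F, Nr4a2, at 8.73 FPKM in E and 27.1 in F, and the sum was 14.7 to 29.9 FPKM in A to D, 38.3 in E and 48.7 in F. The share of Nr4a2 in F (60.9%) lay within those of the layer 6b markers (39.6 to 85.2%). Gnb4 was at 9.68 FPKM in E and 10.2 in F with overlapping intervals. Ntng2 (17.4 and 10.2 FPKM) and Oprk1 (2.57 and 1.25) were lower in F than in E, with intervals apart.

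Raised in F were 0 of 5 genes of hippocampal CA1 neurons (sum 11.6 to 29 FPKM in A to E and 13.9 in F), 0 of 6 genes of the subventricular zone (85.6 to 173 and 114) and 0 of 8 interneuron genes (905 to 1130 and 757). With 11.7% of all genes raised in F, a count of 0 in lists this short, here and below, cannot tell them from other genes. In the CA1 list, Lefty1 was at 0.208 FPKM in E and 0.746 in F, with overlapping intervals, and Fibcd1 at 1.32 in E and 0.877 in F. Of the cholinergic genes, Chat was at 0.191 FPKM in A, 0.0208 in E and 0.0648 in F. Layer 5 genes (0 of 5 raised, median -0.07), layer 4 genes (0 of 3, median -1.80) and genes of layers 2/3 (0 of 4, median -2.14) were not raised in F either, and of the layer 6 genes 1 of 5 was (Tle4, median of the list 2.28). What part the cells marked by the oligodendrocyte, ependymal or striatal genes have in the levels of the 7 genes in F was not tested.

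**Figure D5:**
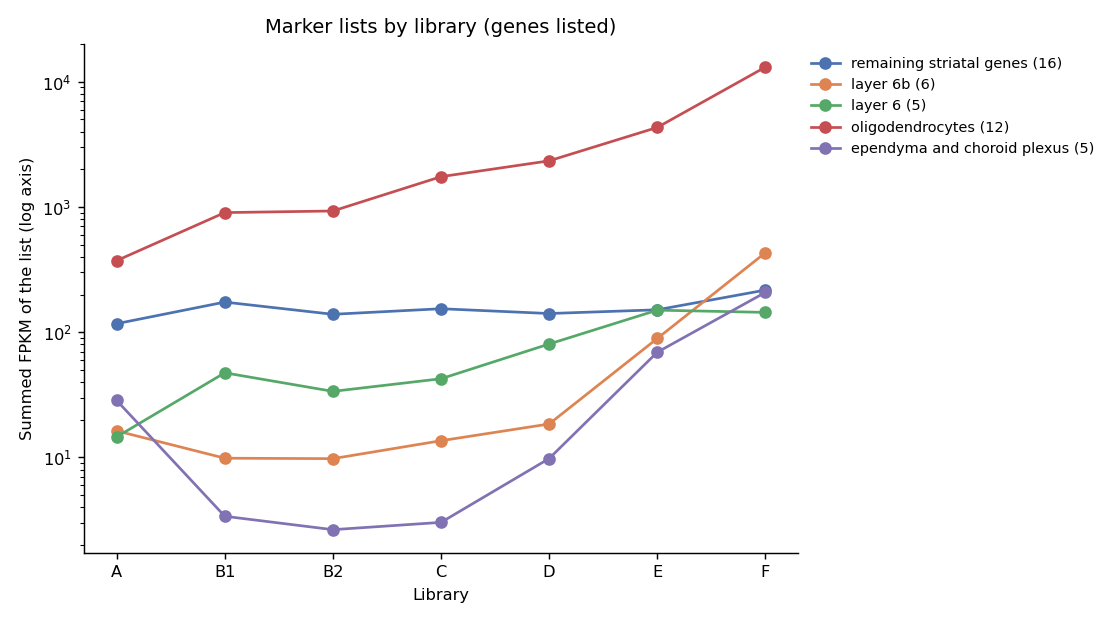
Summed FPKM (vertical, log axis) of 5 marker lists in each library (horizontal). The oligodendrocyte sum rises from 373 to 13089 and that of layer 6b from 9.78 to 431, while the remaining striatal genes go from 117 in A to 217 in F.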

How the data were processed

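Polyadenylated RNA was sequenced as pairs of reads, and the authors mapped them to mm9 with TopHat 1.0.13 and estimated expression with Cufflinks 0.8.3 for Ensembl release 57 and for assembled loci. The deposited FPKM values are on a linear scale with a 95% interval. The coverage (signal) that the authors deposited per transcript, not scaled for depth, was used only to estimate depth, with 2 ends of 50 nt per fragment. The library kit did not mark strand. A gene without a line was taken as 0 FPKM.

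From the FPKM, genes with a mean of at least 0.1 were tested with limma 3.58.1 (R 4.3.3) on log2(FPKM + 0.1), with Benjamini-Hochberg adjustment over all of them, and the code was checked on simulated data. Fold changes on this scale understate those of low genes. The shares of expression and the intervals of differences between libraries were computed from the deposited values, taking libraries as independent although they share mice. The genes and lists were chosen with earlier results of these data known, and the lists come from general knowledge of marker genes. The text names the 7 genes, the ends of the lists, a set of pathway genes, and for each of the 7 the 3 most similar genes that averaged 1 FPKM or more and had an SD of at least 0.5 (log2). Other genes named were chosen after their values were seen. Some genes that this rule names are not reported here. Alternatives varied the pseudocount, the filter, the scaling, the interval width and the libraries used.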

Additional observations from a re-analysis of the deposited data

How the results depend on the processing

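Under the alternatives 66 of the main counts stayed within 1.5 times their value, and 14 did not. The genes past the threshold for F numbered 12, and 21 or 4 with a pseudocount of 0.01 or 1, 4 with a mean of at least 1 FPKM, 28 with no filter, 25 without E, 29 without A and 0 in the fit with 6 segments, whose spread comes from B1 and B2 alone. None of the 7 genes was among them in any of these. The trend test called 6160 genes, 3790 without F and 1294 without A, and its members past the threshold went from 4 to 2 without F, where Adora2a reversed (linear term -0.47). Members raised in F went from 6 to 3 with the rule of at least 2-fold, members with a pattern in A to E from 7 to 4 without A, and members raised only in F from 0 to 1 (Adora2a) with intervals widened 2 times and to 3 without A. Without 1 of the B libraries the main calls were 11 to 13 genes for F and 4605 to 8570 for the trend. Of single genes, 168 values kept their call, and 9 gained and 3 lost it. Drd2 could not be fitted at a mean of at least 1 FPKM, nor Drd2, Adora2a and Rgs9 among genes with narrow intervals (at most 50% of the mean). No analysis paired by mouse was possible, although the segments came from the same mice, because the mice were pooled within each library. The depth of A is the lowest, and the intervals of Drd2 and Adora2a are the widest relative to their means.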
